A study of Drosophila melanogaster with 2 samples.

Results

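The genes described here are the sex determination cascade of Drosophila melanogaster (Sxl, tra, tra2, dsx and fru) and the yolk protein genes that lie at its end (Yp1, Yp2 and Yp3). These 8 genes were taken by symbol from a table of 15906 features, and each was found as 1 feature. They were measured in whole bodies of adult males at 15 days of age, in 2 libraries, 1 per group. The miR-305 males were da-Gal4/UAS-miR305 flies, in which the ubiquitous daughterless driver expressed a transgene for the microRNA miR-305. The control males were da-Gal4/+ flies, which carried the same driver without UAS-miR305. The sources used here do not give the number of flies in each library. By its title, the study looked for mRNAs that are targets of miR-305 and linked this microRNA to ageing.

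In flies, sex is set by a chain of RNA splicing steps. Sxl, an RNA-binding protein made in females, directs the splicing of tra, and Tra together with Tra2 directs the splicing of dsx and fru. In males the chain runs by default, so that dsx and fru transcripts give the male forms of their transcription factors. The yolk proteins are made for the egg by the fat body and the ovarian follicle cells of females, and their genes are activated by the female form of Dsx and repressed by the male form. Sxl, tra, dsx and fru are therefore transcribed in both sexes and differ mainly in splicing, whereas the yolk protein genes differ in transcription.

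Levels are in FPKM (fragments counted per kilobase of transcript, relative to all mapped fragments), as the authors deposited them, a unit in which genes of different length can be compared. The FPKM of a gene sums all of its transcripts, so the male and female splice forms are not told apart here. The log2 ratio is log2 of (FPKM + 1) in miR-305 males over (FPKM + 1) in control males, and a gene was counted as higher or lower when this ratio reached 2-fold. Only features whose mean over both libraries was 1 FPKM or more were counted, and 6 of the 8 genes passed this filter. With 1 library per group there is no test, no spread between replicates and no p-value, and whether a difference would recur in other flies is unknown. In whole bodies, fewer cells of a type and less RNA per cell cannot be told apart.

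The libraries were first checked against their labels. The mir-305 stem-loop had 546 FPKM in miR-305 males and was listed at 0 in control males. The feature that joins the eye colour gene w, a usual marker of transgenes, with CG32795 had 46.3 FPKM in miR-305 males and 39.5 FPKM in control males. FPKM summed over all features to 1176985 in miR-305 males and 967511 in control males, and the sequencing depth is unknown. Over all 11936 features past the filter, the median log2 ratio was -0.03, with 282 (2.36%) at least 2-fold higher and 208 (1.74%) at least 2-fold lower. After rescaling to an equal FPKM sum, 179 were higher and 379 lower, and the median shifted by -0.25, to -0.27. The male-specific RNAs roX1 and roX2 were present in both libraries. The noncoding RNA roX1, which targets the dosage compensation complex to the male X chromosome, had 297 FPKM in miR-305 males and 295 FPKM in control males. Its partner roX2 had 27.2 FPKM in miR-305 males and 25.8 FPKM in control males. The Y-linked genes kl-2, kl-3, kl-5, ORY and Pp1-Y1 were above 0 in both libraries but under the filter. ARY, also Y-linked, had 3.03 FPKM in miR-305 males and 4.62 FPKM in control males. All of these Y-linked genes were lower in miR-305 males. So were 60.2% of all features with a mean from 0.3 to under 1 FPKM. From 3 to under 10 FPKM, the range of ARY, the share was 60.8%. None of 22 egg and ovary genes (chorion, vitelline membrane and maternal genes) passed the filter. Their summed FPKM was 3.18 in miR-305 males and 4.44 in control males, and 8 of them, including the chorion genes Cp16, Cp36 and Cp38, were listed at 0 in both.

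None of the 6 genes past the filter was at least 2-fold higher or lower in miR-305 males, beside 4.11% of all features past 2-fold in either direction. Their median log2 ratio was -0.12, beside -0.03 over all features. The ratio was below 0 for Sxl, tra2, dsx and Yp3 and above 0 for tra and fru, and the signs of tra and fru turned after rescaling to an equal FPKM sum. The largest difference among the 6 belonged to Sxl. Yp1 and Yp2, which did not pass the filter, also had lower FPKM in miR-305 males.

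**Figure D1:**
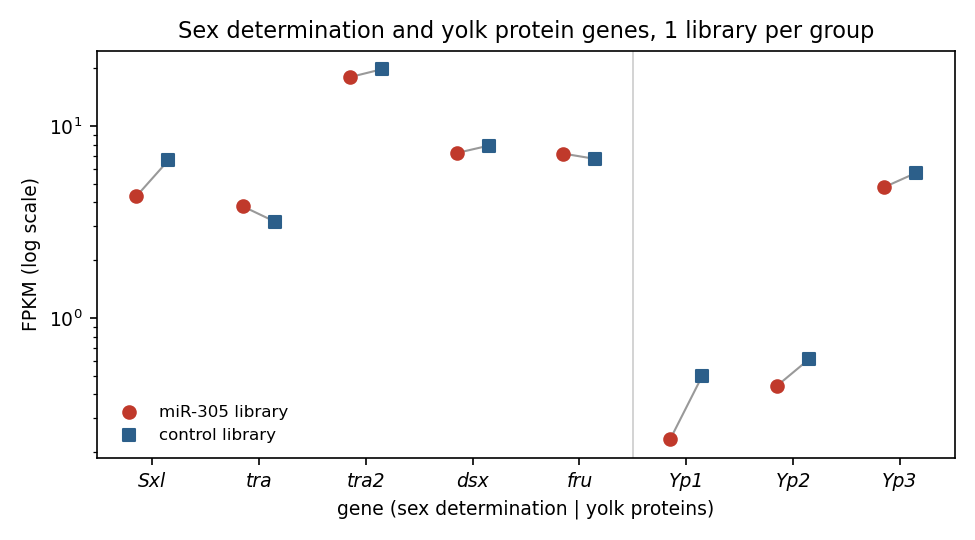
FPKM (log scale) of the 8 genes in miR-305 males (red circles, left of each pair) and in control males (blue squares, right), with 1 library per group and hence no error bars. tra2 was highest in both libraries, with 17.98 FPKM in miR-305 males and 19.8 FPKM in control males, and Yp1 and Yp2 were under 1 FPKM in both.

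Sxl stands at the head of the cascade (chromosome X, 7074550 to 7098053, minus strand, dm6). It had 4.30 FPKM in miR-305 males and 6.62 FPKM in control males. The level in miR-305 males was 1.54-fold lower, with a log2 ratio of -0.52. Among the 3490 features with a mean from 3 to under 10 FPKM, the middle 80% of log2 ratios ran from -0.49 to 0.33, so Sxl lay just outside the lower end of that range. The sign, which a pseudocount cannot change, was the same under the 3 other scalings. Over all settings the log2 ratio ran from -0.32 with a pseudocount of 5 to -0.76 with an equal FPKM sum. The deposited feature joins Sxl with the stem-loop mir-4956. The annotation gives Sxl 25 transcripts with 4 start sites and 15 distinct coding sequences. Early and late promoters and all splice forms of the gene are added together in this value.

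The tra gene (chromosome 3L, 16590059 to 16591050, minus strand) encodes the splicing regulator whose functional protein is made in females. It had 3.81 FPKM in miR-305 males and 3.18 FPKM in control males, a ratio of 1.20 and a log2 ratio of 0.21. It was the lowest of the 5 cascade genes in both libraries. With an equal FPKM sum the log2 ratio was -0.014, beside a median of -0.27 over all features. The 3' ends of tra and of l(3)73Ah, on the opposite strand, overlap by 74 bases, which is 8.58% of the exonic bases of tra. l(3)73Ah lay on the other side of equal, with 8.24 FPKM in miR-305 males and 9.59 FPKM in control males.

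Its partner tra2 (chromosome 2R, 14602004 to 14604337, minus strand) encodes an RNA-binding protein that is made in both sexes and is also needed for male fertility. It was the most abundant of the 8 genes, with 17.98 FPKM in miR-305 males and 19.8 FPKM in control males and a log2 ratio of -0.13. Its FPKM exceeded that of 71.1% of all features in miR-305 males and of 72.5% in control males. The FPKM of tra2 was 4.71 times that of tra in miR-305 males and 6.23 times in control males. The small RNA scaRNA:PsiU5-44, which lies inside tra2 on the same strand, was listed at 0 in miR-305 males and had 55.3 FPKM in control males. Blos1, which overlaps the 3' end of tra2 by 7 bases on the opposite strand, had 12.7 FPKM in miR-305 males and 8.70 FPKM in control males. The genes that share bases with tra2 thus lay on opposite sides of equal. The value listed at 0 for scaRNA:PsiU5-44 may be an estimate that failed.

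The transcription factor genes dsx and fru sit at the end of the splicing chain. dsx (chromosome 3R, 7924323 to 7967408, minus strand), which shapes the sexual traits of the body, had 7.24 FPKM in miR-305 males and 7.91 FPKM in control males, with a log2 ratio of -0.11. fru (chromosome 3R, 18414273 to 18545586, minus strand), whose male-specific forms act in neurons for courtship, had 7.19 FPKM in miR-305 males and 6.74 FPKM in control males, with a log2 ratio of 0.08. With an equal FPKM sum both ratios were negative, at -0.36 for dsx and -0.17 for fru (median of all features, -0.27). The levels of these genes were close in each library, with 1.01 times as much dsx as fru in miR-305 males and 1.17 times in control males. Both are long, spanning 43086 bases for dsx and 131314 bases for fru, with 7 annotated transcripts for dsx and 15 for fru. The fru transcripts start at 7 sites and hold 13 distinct coding sequences, and the male-specific forms are only some of them. The gene lds overlaps the 3' end of dsx by 169 bases on the opposite strand, and had 3.82 FPKM in miR-305 males and 4.61 FPKM in control males. A small RNA inside lds, scaRNA:MeU2-C41, was listed at 0 in miR-305 males and had 6.40 FPKM in control males.

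**Figure D2:**
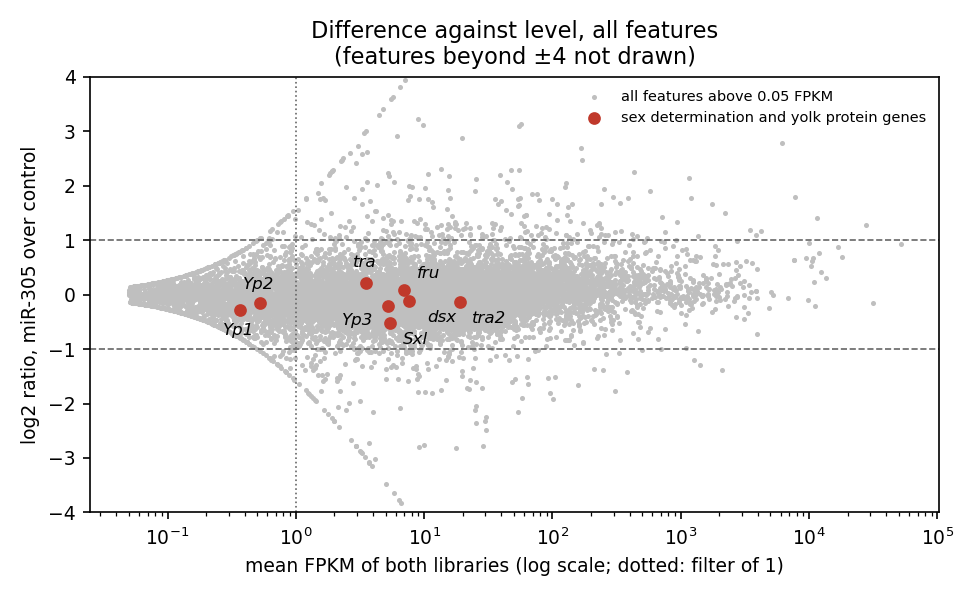
Log2 ratio of miR-305 over control FPKM (1 added to each) against the mean FPKM of both libraries (log scale), for all features above 0.05 FPKM (grey) and the 8 genes (red). The dashed lines mark 2-fold and the dotted line the filter of 1 FPKM; the 8 genes lie between the dashed lines, Sxl lowest at -0.52, and Yp1 and Yp2 stand left of the filter.

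All 3 yolk protein genes lie on chromosome X and had lower FPKM in miR-305 males. Yp3 (13759546 to 13761547, plus strand) made up most of their signal, with 4.79 FPKM in miR-305 males and 5.69 FPKM in control males and a log2 ratio of -0.21. It accounted for 87.6% of the summed yolk protein FPKM in miR-305 males and 83.7% in control males. Yp2 (10050951 to 10052636, minus strand) had 0.443 FPKM in miR-305 males and 0.610 FPKM in control males, with a log2 ratio of -0.16. Yp1 (10053811 to 10055498, plus strand) had 0.233 FPKM in miR-305 males and 0.498 FPKM in control males. It was 2.14-fold lower in miR-305 males by the FPKM alone, and its log2 ratio with 1 added to each value was -0.28. The 3 genes summed to 5.47 FPKM in miR-305 males and 6.80 FPKM in control males, a 1.24-fold difference.

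The difference in Yp1 rests on values near the low end of the table. Without the added 1, its log2 ratio was -1.10. On that scale the middle 80% of features with a mean from 0.3 to under 1 FPKM, and above 0 in both libraries, ran from -1.53 to 1.02, and Yp1 lay within this range. Yp1 and Yp2 are neighbours, transcribed away from each other with 1174 bases between them, and are known to share a regulatory region that binds Dsx. Yp2 had 1.90 times the FPKM of Yp1 in miR-305 males and 1.22 times in control males. Yp3 stands apart on the chromosome, and its FPKM was 20.6 times that of Yp1 in miR-305 males and 11.4 times in control males.

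The transcript on the opposite strand of Yp1 had more FPKM than Yp1 itself. CR45601 (chromosome X, 10054235 to 10055109, minus strand), an antisense noncoding RNA, lies wholly inside Yp1 and covers 54.3% of its exonic bases. It had 1.55 FPKM in miR-305 males, which is 6.66 times the FPKM of Yp1 there, and 4.13 FPKM in control males, which is 8.29 times. Its log2 ratio was -1.01, past 2-fold as deposited but not with a pseudocount of 5 (-0.48), nor with an equal median (-0.95) or an equal upper quartile (-0.998). The library kit preserves strand, but which strand setting was used in counting is not stated in the labels. Reads from Yp1 and from CR45601 therefore cannot be told apart with certainty. No annotated gene overlaps Yp2 or Yp3.

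**Figure D3:**
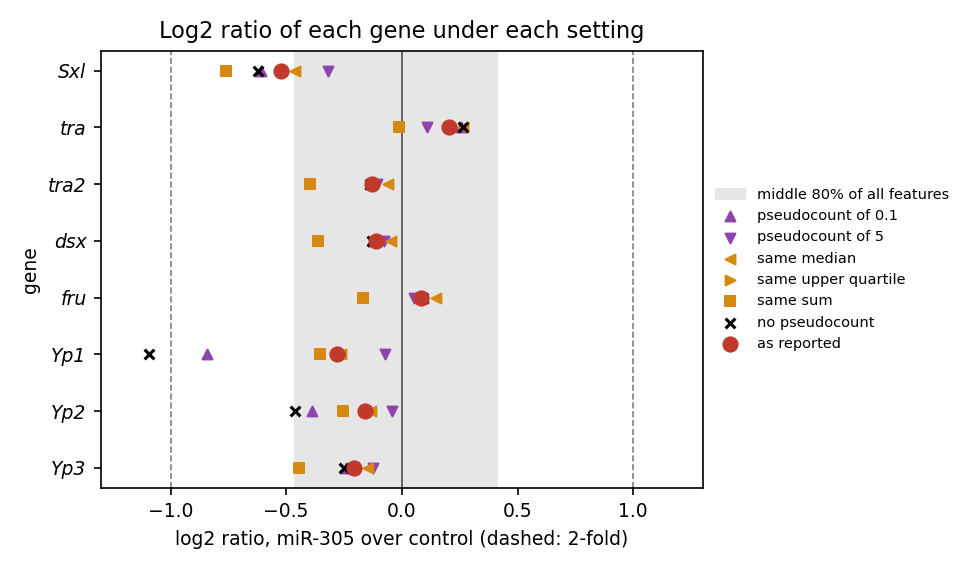
Log2 ratio of miR-305 over control for each of the 8 genes as reported (large red circles) and under each other setting. The grey band (-0.46 to 0.41) holds the middle 80% of all 11936 features past the filter, as reported. It was not redrawn for the other settings. With an equal FPKM sum the median of these features was -0.27, and Yp1 and Yp2 are not among them. Dashed lines mark 2-fold; Yp1 passed it without an added pseudocount (-1.10) and under no other setting drawn, and tra and fru crossed 0 with an equal FPKM sum.

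In order of level, tra2 stood first in both libraries, followed by dsx and fru, then Sxl, Yp3 and tra, then Yp2 and Yp1. Yp3 was above Sxl in miR-305 males and below it in control males. With 1 library per group no spread is known, so neighbours in this order are not shown to differ. All 4 X-linked genes (Sxl, Yp1, Yp2 and Yp3) had a ratio below 0, as did 55.3% of the 1842 X-linked features past the filter, whose median was -0.04.

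The other genes of the pathway were taken from 7 lists with 59 genes, of which 45 passed the filter as features of their own. Of these, 0 were at least 2-fold higher (background 2.36%) and 0 at least 2-fold lower (background 1.74%), a count near that background, and their median log2 ratio was -0.06. With a pseudocount of 0.1, or with none, eloF was past 2-fold on the lower side. The feature that holds fit was past 2-fold on the higher side but joins several genes and entered no count. The lists hold genes with a known part in sex determination or under its control, apart from the 8 genes themselves.

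Of the genes that read the number of X chromosomes in the embryo, or modify that signal, 5 of 9 were under the filter. The activator gene sisA was listed at 0 in both libraries, sc in miR-305 males and the repressor gene dpn in control males. A further activator, run, had 0.273 FPKM in miR-305 males and 0.324 FPKM in control males. The gene os, also under the filter, had 0.807 FPKM in miR-305 males and 0.546 FPKM in control males. The 4 genes past the filter, which also act in many other tissues, were all below 0, as were 53.6% of all features. Their median was -0.27 (all features, -0.03). The gene emc, for a repressor of helix-loop-helix factors, had 27.0 FPKM in miR-305 males and 35.4 FPKM in control males. The co-repressor gene gro had 9.41 FPKM in miR-305 males and 12.1 FPKM in control males. The driver's namesake da had 10.8 FPKM in miR-305 males and 12.6 FPKM in control males.

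All 13 factors that act with Sxl on splicing passed the filter. Their median was 0.01 as deposited, with ratios from -0.21 to 0.32, and -0.24 with an equal FPKM sum. At the upper end, snf, for a spliceosome protein needed for Sxl splicing, had 29.2 FPKM in miR-305 males and 23.2 FPKM in control males, and the splice site factor gene U2af38 had 21.0 FPKM in miR-305 males and 17.2 FPKM in control males. The lowest was Mettl3, for an RNA methyltransferase, with 4.34 FPKM in miR-305 males and 5.18 FPKM in control males. U2af50 was the most abundant of the list, with 30.3 FPKM in miR-305 males and 34.5 FPKM in control males.

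Among messages bound by Sxl and its co-factors, 0 of 5 were past 2-fold (background 4.11%), with a median of -0.25. msl-2, which is translated in males and repressed by Sxl in females, had 7.55 FPKM in miR-305 males and 7.81 FPKM in control males. The co-repressor gene Unr had 1.94 FPKM in miR-305 males and 3.16 FPKM in control males. The gene how, for an RNA-binding protein of muscle and other tissues, had 9.62 FPKM in miR-305 males and 13.2 FPKM in control males. The Notch receptor gene N had 1.83 FPKM in miR-305 males and 2.37 FPKM in control males.

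The partners of Tra, Tra2 and Dsx had a median of -0.08 over 4 genes. Doa, for a kinase of splicing factors, had 27.1 FPKM in miR-305 males and 29.1 FPKM in control males. The gene ix, for a cofactor of the female form of Dsx, had 4.94 FPKM in miR-305 males and 5.16 FPKM in control males. These values lay close together in each case, and her, which also acts on Sxl, had 5.75 FPKM in miR-305 males and 6.36 FPKM in control males. The genes of Fru partners and other neural sex genes had a median of -0.02 over 5 genes, and 0.045 with an equal median in both libraries. The farthest from equal of these 5 was the gene for heterochromatin protein HP1a, a chromatin partner of Fru. It had 63.9 FPKM in miR-305 males and 74.99 FPKM in control males. The gene lola, also listed, shares its feature with pre-lola-G and entered no count. That feature had 35.9 FPKM in miR-305 males and 47.7 FPKM in control males, a log2 ratio of -0.40. The axon guidance receptor gene robo1 had 2.11 FPKM in miR-305 males and 2.33 FPKM in control males, and retn had 6.93 FPKM in miR-305 males and 6.68 FPKM in control males.

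Genes known to be under the control of dsx or fru, or sex-biased in the fat body, lay on both sides. Of 9 past the filter, 6 had a ratio above 0, and the median was 0.10 as deposited and -0.13 with an equal FPKM sum. The cytochrome P450 gene Cyp4d21 (sxe1), a male-biased gene of the head, had 158 FPKM in miR-305 males and 102 FPKM in control males. The lipase-like gene sxe2 had 270 FPKM in miR-305 males and 204 FPKM in control males. In the other direction, eloF, for an enzyme that lengthens the hydrocarbon pheromones of females, had 1.01 FPKM in miR-305 males and 2.14 FPKM in control males. Its log2 ratio of -0.64 was -1.01 with a pseudocount of 0.1, past 2-fold. desatF, whose enzyme also makes female pheromones, was listed at 0 in both libraries. The most abundant gene of the list, Obp99b, had 1015 FPKM in miR-305 males and 913 FPKM in control males. The feature that joins fit, a female-biased gene of the head fat body, with CG34148 and CR45046 had 327 FPKM in miR-305 males and 151 FPKM in control males, a log2 ratio of 1.10, and how much of this belongs to fit is not known.

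Genes for regulators of the yolk proteins had a median of -0.33 over 6 genes, of which 5 were below 0 (53.6% of all features) and 0 were past 2-fold (background 4.11%). The ecdysone receptor gene EcR had 1.503 FPKM in miR-305 males and 2.61 FPKM in control males. Met, for a juvenile hormone receptor, had 2.77 FPKM in miR-305 males and 4.19 FPKM in control males, and its paralog gce had 5.13 FPKM in miR-305 males and 6.997 FPKM in control males. These 3 hormone receptor genes were thus lower in miR-305 males, each by less than 2-fold. The receptor gene usp, also listed, shares its feature with Actn and entered no count. That feature was near equal, with 50.3 FPKM in miR-305 males and 52.5 FPKM in control males. The GATA factor gene srp, the most abundant, had 20.3 FPKM in miR-305 males and 22.1 FPKM in control males.

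Genes of the fat body, a main source of yolk protein in females, and of the male tract did include some past 2-fold. Of 7 fat body genes past the filter, 3 were at least 2-fold higher in miR-305 males (background 2.36%) and 0 at least 2-fold lower, and all 3 were larval serum proteins. Lsp2 had 514 FPKM in miR-305 males and 159 FPKM in control males, Lsp1beta had 70.8 FPKM in miR-305 males and 24.6 FPKM in control males, and Lsp1alpha had 9.21 FPKM in miR-305 males and 1.18 FPKM in control males. A further larval serum protein gene, Lsp1gamma, was under the filter, with 0.503 FPKM in miR-305 males and 0.830 FPKM in control males. The other 4 genes past the filter lay below 0, with log2 ratios from -0.54 to -0.09. Nearest to equal of these was the lipoprotein gene apolpp, with 235 FPKM in miR-305 males and 251 FPKM in control males. The list's median was -0.09. The 9 single-gene features of the list summed to 965 FPKM in miR-305 males and 623 FPKM in control males. The difference in this sum rests on Lsp2. The part of fat body RNA in the yolk protein values was not tested.

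Of 10 expressed male-specific or male tract genes, 1 was at least 2-fold higher in miR-305 males (background 2.36%) and 0 were at least 2-fold lower (background 1.74%), with a median of 0.02 as deposited and -0.24 with an equal FPKM sum. The accessory gland gene Mst57Da had 5258 FPKM in miR-305 males and 2457 FPKM in control males, a log2 ratio of 1.10 that was 0.81 with an equal FPKM sum. The sex peptide gene SP, the most abundant, had 21688 FPKM in miR-305 males and 11863 FPKM in control males, and Acp36DE had 531 FPKM in miR-305 males and 325 FPKM in control males. The sperm tail gene dj had 40.9 FPKM in miR-305 males and 57.0 FPKM in control males. The 15 single-gene features of the list summed to 28237 FPKM in miR-305 males and 15529 FPKM in control males. Most of this sum, and of its difference, came from SP and Mst57Da, so it does not describe the list as a whole. The part of these tissues in the value of tra2, which acts in the male germ line, was not tested.

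**Figure D4:**
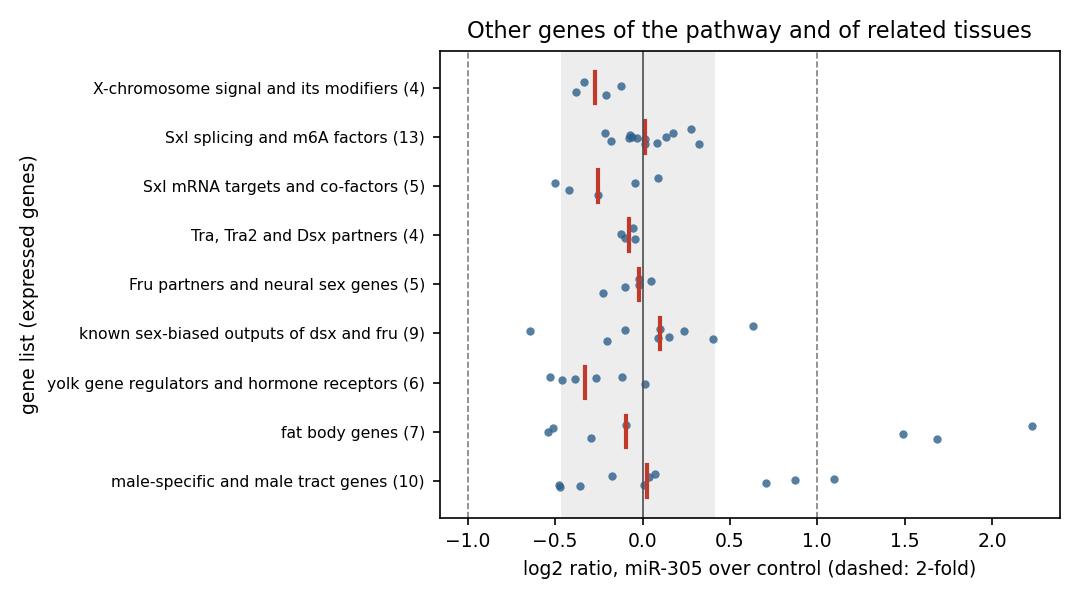
Log2 ratio of miR-305 over control for each expressed gene (blue points) of 9 lists, with the list median (red bar), the middle 80% of all features (grey band) and 2-fold (dashed lines). Points of the 7 pathway lists lie between the dashed lines, from -0.64 for eloF to 0.63 for Cyp4d21, and 4 points of the fat body and male lists lie beyond 2-fold on the higher side.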

How the data were processed

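RNA was taken from whole adult males with Trizol, made into NEBNext Ultra Directional libraries and sequenced as 51-base single-end reads, per the labels' protocols. The submitters' processing notes name dm6 and the tools TopHat2 2.0.13, Cufflinks 2.2.1 and FastQC 0.11.5. The deposited table, made by the authors, holds 1 FPKM value for each library and feature. Its annotation, strand setting and filters are not stated. Low FPKM times transcript length did not fall on whole-read steps (at best 13.3% of 841 low features in miR-305 males lay within 0.05 reads of a whole number), so depth is unknown and no interval is given.

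The 8 genes and 10 lists were chosen with earlier results of these data known. Genes were matched by symbol or synonym, and Ensembl 115 (dm6 coordinates, counted from 1) had to place a gene matched by synonym in the deposited locus. Features with several coding genes entered no list count. The rule for naming took the 8 genes, features that overlap or adjoin them, w, da and mir-305, and of each list the genes past 2-fold, the 3 with the largest absolute ratio and the most abundant. A gene that this rule would name is not reported here. Chosen after their values were seen were sisA, sc, dpn, run, msl-2, desatF, fit, apolpp, dj, roX1, roX2, Cp16, Cp36 and Cp38. The same holds for kl-2, kl-3, kl-5, ORY, Pp1-Y1, ARY, Lsp1gamma, usp, os and lola. A value of exactly 0 may be an estimate that failed, and is given as listed at 0. Other settings were pseudocounts of 0.1 and 5, no filter, a filter at 10 FPKM, and an equal median, upper quartile or FPKM sum. Ratios with no pseudocount were added after seeing the data. Python 3.11.15, numpy 2.4.6, pandas 2.3.3 and matplotlib 3.10.9 were used, and the calculation was tested on simulated data.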

Additional observations from a re-analysis of the deposited data

How the results depend on the processing

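No paired analysis was possible because each group had 1 library, and for the same reason no library could be left out. Among those of the 8 genes that passed the filter in use, the counts at least 2-fold higher (0) and lower (0) were the same under every setting tried. With the filter at 10 FPKM only tra2 was left to count. With an equal FPKM sum in both libraries, the log2 ratio of tra was -0.014 and that of fru -0.17. The list medians were then -0.24 for the factors that act with Sxl, -0.13 for outputs of dsx and fru and -0.24 for male genes. Over all features the median with that setting was -0.27. The median of male genes was -0.22 with no filter, and that of the Fru partner list was 0.045 with an equal median in both libraries. Without a pseudocount, a setting chosen after seeing the data, the log2 ratio of Yp1, which is under the filter and so not in that count, was -1.10, past 2-fold. In the other 128 of 136 comparisons of a setting with the reported value, the sign and side of 2-fold, or the count, were the same. The counts of genes past 2-fold, which were 0 throughout, are among these 128. A pseudocount cannot change the sign of a single gene's ratio, so some of these comparisons could not have differed in sign. Dropping the filter could not move a list median where every gene counted in the list had already passed it. Over all features, 282 were higher and 208 lower as reported, against 175 and 102 with a pseudocount of 5, 366 and 332 with 0.1, 180 and 91 among features of at least 10 FPKM, and 179 and 379 with an equal sum. Depth is unknown, so the precision of Yp1 and Yp2, both under 1 FPKM, is unknown too.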

Other observations

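The features nearest to the 8 genes on the chromosome were compared in the same way. Of 14 such features that are not among the 8, 11 passed the filter, 0 of these were at least 2-fold higher or lower (4.11% of all features were), and their log2 ratios ran from -0.22 to 0.77. The highest was CG4607, 1860 bases from Sxl on the opposite strand, with 157 FPKM in miR-305 males and 91.6 FPKM in control males. On the other side of Sxl, CG4615 had 6.35 FPKM in miR-305 males and 6.15 FPKM in control males. Next to Yp3, Rtc1 had 7.84 FPKM in miR-305 males and 6.51 FPKM in control males, while rdgB, a lipid transfer gene of photoreceptors, had 11.7 FPKM in miR-305 males and 13.8 FPKM in control males. The others past the filter were CG32163 and spd-2 beside tra, RpI1 and CG12868 beside tra2, CD98hc beside dsx, and CG10864 and CG7691 beside fru. The taste receptor gene Gr9a, next to Yp1, was listed at 0 in both libraries.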
